A study of Mus musculus with 28 samples.

Results

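Bone marrow-derived dendritic cells exposed to lipopolysaccharide (LPS) for 2 h were compared with mock-stimulated cells harvested at the same time. The comparison was defined by the labels alone and took 4 of the 28 samples of the series: LPS replicates 1 and 2 and mock replicates 1 and 2 at 2 h. All 3147 genes listed in the RNA table were compared. Genes without a row, such as Tlr4, could not be compared, and shares of all genes are shares of these 3147. The cells came from the bone marrow of female C57BL/6J mice aged 6 to 8 weeks and were grown with GM-CSF at 20 ng per ml, and the cells that did not attach firmly were harvested without sorting. On day 9 they received either ultrapure LPS of a rough E. coli K12 strain at 100 ng per ml, or no stimulus, which the labels call mock. Both arms, and the cells at 0 h, carried the same exchange of isotope-labelled medium at time 0. Other libraries of the series, 22 further RNA libraries among them, enter here only through the shared estimate of spread and where other times are named.

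Dendritic cells sample their surroundings for microbes and carry antigen to T cells. LPS, a component of the outer membrane of Gram-negative bacteria, is bound by CD14 and sensed by TLR4 with MD-2. The adaptor MyD88 leads from TLR4 to the NF-kB and MAP kinase pathways and so to inflammatory cytokines, while the adaptor TRIF leads to IRF3 and to type I interferon. Secreted interferon then acts back on the same cells through a complex of transcription factors that binds the interferon-stimulated response element (ISRE) in the promoters of antiviral genes.

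Values are TPM, a length-normalized level with a fixed total per library, so each value is relative to the other listed genes and sequencing depth is unknown. Paired values are given as replicate 1 and replicate 2. Changes are LPS minus mock on the log2(TPM + 1) scale with a moderated standard error, and a gene is said to have risen or fallen where its Benjamini-Hochberg adjusted p from limma was under 0.05 over all 3147 genes. This scale understates the change of weakly expressed genes. Whether replicates 1 and 2 were separate cultures is not stated, and the p-values therefore reflect how far these libraries scatter, a scatter that may be technical only.

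Libraries of the same arm were more alike than libraries of different arms. The Pearson correlation of log2 levels across the 3147 genes, which are not independent replicates, was 0.963 between the mock libraries, 0.971 between the LPS libraries and 0.879 to 0.915 between arms. The 20 most abundant genes held 24.3% to 27.8% of each library, and the median gene stood at 69.8 to 73.5 TPM. Of the 13 dendritic markers asked for, 7 had a value, among them Itgax, Cd74 and H2-Aa, and none of the 7 was listed at 0. Summed dendritic markers reached 22396 and 11868 TPM in mock and 24546 and 14535 TPM under LPS. Summed macrophage markers (7 measured, led by Lyz2) reached 43211 and 18612 TPM in mock and 39921 and 18798 TPM under LPS, and the 7 neutrophil granule markers 7721 and 3765 TPM in mock and 8678 and 2622 TPM under LPS. Replicate 1 thus had the higher marker sums in both arms. Of the 21 measured markers on these lists, Cd14 was the only one called between arms at 2 h. Markers of T and NK cells, B cells and mast cells had no value in the table and were not analysed here. In bulk RNA, fewer cells of a type and less RNA per cell cannot be told apart.

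At 2 h, 201 genes had risen (6.39% of those tested) and 253 had fallen (8.04%), 454 in all (14.4%). Of these calls, 153 rises and 140 falls exceeded 1 on the log2 scale, and 65 rises against 10 falls exceeded 2. The rises were therefore larger than the falls, although fewer. The median gene changed by -0.16, so that 63.2% of genes lay below 0. Rescaling each library by its median ratio moved that median to -0.01 and the split to 253 rises and 163 falls, and quantile normalization gave 224 and 207. Both LPS libraries lay above both mock libraries for 592 genes (18.8%) and below both for 1114 (35.4%). The counts depended on single libraries: without LPS replicate 1, LPS replicate 2, mock replicate 1 or mock replicate 2, the rises numbered 133, 145, 136 and 147 and the falls 140, 136, 131 and 108. With the spread taken from these 4 libraries alone, 141 genes rose and 90 fell. Of the genes named below, Cd14, Junb, Irak3, Idi1 and Iqsec1 were then no longer among the rises (adjusted p from 0.061 to 0.12). Cnpy3, Commd5, Dnmt1, Hscb, Il16, Irf5, Mvd, Mvk, the Acat2 row, Ndufs6, Pdcd11, Polr2e, Ptgs1, Rnf113a1, Spr, Tbc1d2 and Cyth4 were no longer among the falls (adjusted p from 0.051 to 0.16). By unadjusted p under 0.05 in the fit over all groups, 316 genes (10%) were higher and 523 (16.6%) lower, the background for the unadjusted counts of each list. For the adjusted calls of each list the background is 6.39% risen and 8.04% fallen.

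**Figure D1:**
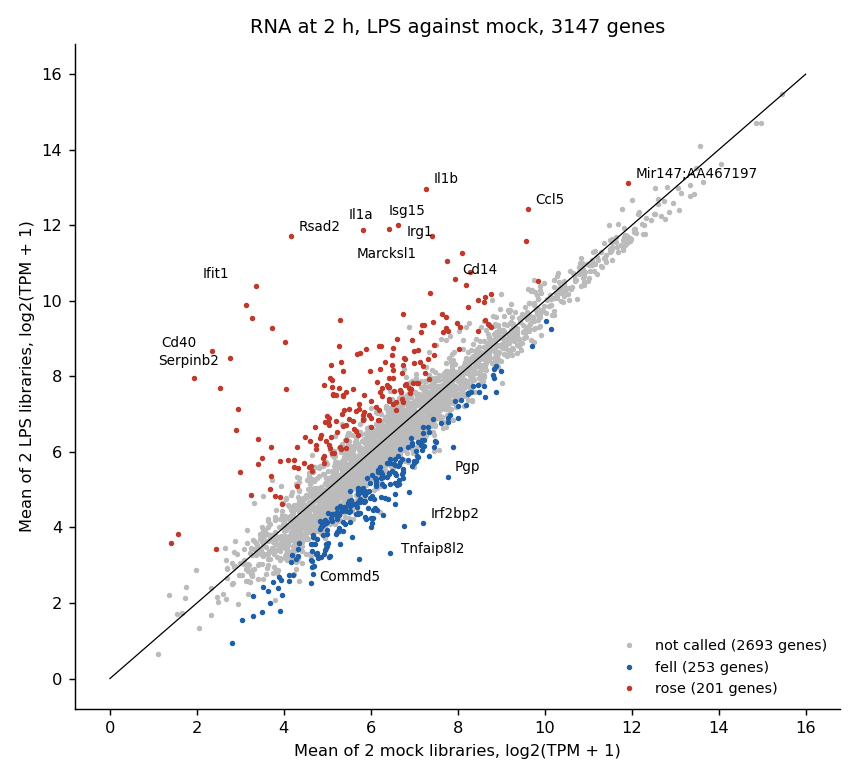
Mean level of each of the 3147 genes in the 2 mock libraries (horizontal axis) and the 2 LPS libraries (vertical axis) at 2 h, both as log2(TPM + 1); the line marks equal levels, red points rose (201 genes) and blue points fell (253 genes). The red points reach farther from the line than the blue ones, with Rsad2, Ifit1 and Cd40 among the farthest above it and Tnfaip8l2 and Irf2bp2 below it.

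The genes that rose took up 2.35% and 2.40% of all TPM in the mock libraries and 11% and 10% in the LPS libraries. The genes that fell took up 2.49% and 2.57% in mock and 1.26% and 1.29% under LPS. The median riser went from 55.5 to 201 TPM and the median faller from 57.6 to 25.7 TPM, so both groups started from similar levels. Across genes, the change had a Spearman correlation of 0.06 with the mock level.

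Secreted inflammatory mediators held some of the largest rises. Il1a and Il1b encode the interleukin-1 cytokines, which drive fever and local inflammation. Il1b stood at 239 and 67.4 TPM in mock and 9512 and 6569 TPM under LPS, a change of 5.95 ± 0.60 (SE; adjusted p = 2.6e-06). Il1a stood at 64.8 and 46.2 TPM in mock and 4434 and 3140 TPM under LPS, a change of 6.07 ± 0.66 (adjusted p = 6.3e-06). In both genes the arms were far apart, and replicate 1 was the higher library in each arm. Il1rn, which encodes the secreted antagonist of the interleukin-1 receptor, also rose, from 401 and 214 to 2135 and 1308 TPM. Ccl5, a chemokine that draws T cells, stood at 977 and 599 TPM in mock and at 6026 and 4983 TPM under LPS (2.84 ± 0.40, adjusted p = 8.3e-05). These 4 were the rises among the 9 cytokines and chemokines with a value, of 44 names asked for, and 0 fell. By unadjusted p under 0.05 in limma the counts were also 4 higher and 0 lower. The list median was 0.16 against -0.16 for all genes, so the list as a whole was not displaced as its 4 risen members were.

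Of 19 measured enzymes and other genes of small mediators, 13 were not called. Ptgs2 encodes the inducible cyclooxygenase COX-2 of prostaglandin synthesis. It was at 9.58 TPM in mock replicate 1, was listed at 0 in mock replicate 2, and stood at 285 and 127 TPM under LPS (5.88 ± 1.05, adjusted p = 0.00093). Ptgs1, the constitutive cyclooxygenase, fell from 118 and 179 to 64.4 and 75 TPM (-1.05 ± 0.23, adjusted p = 0.0041). The inducible and the constitutive enzyme thus moved in opposite directions at 2 h; the call of Ptgs1 was lost without mock replicate 2 (adjusted p = 0.086). Irg1 encodes the enzyme that makes itaconate from a citric acid cycle intermediate. Its level was 135 and 60.6 TPM in mock and 4767 and 3397 TPM under LPS (5.46 ± 0.45, adjusted p = 2.6e-07). Sod2, the mitochondrial superoxide dismutase, rose from 207 and 227 to 595 and 579 TPM, with little spread within either arm. Gch1, the entry enzyme of tetrahydrobiopterin synthesis, changed by 1.30 ± 0.29, and its call was lost without LPS replicate 1 (adjusted p = 0.055) or mock replicate 2 (adjusted p = 0.062). In all, 4 rose (Ptgs2, Irg1, Sod2 and Gch1) and 2 fell (Ptgs1 and Spr, the last enzyme of tetrahydrobiopterin synthesis). The Spr call was lost without LPS replicate 2 (adjusted p = 0.099) or mock replicate 1 (adjusted p = 0.135) and with length and GC trends removed (-0.57, adjusted p = 0.125).

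Among the components of LPS recognition, Cd14 had the largest change. The receptor Cd14 stood at 366 and 119 TPM in mock and 2234 and 805 TPM under LPS. The arms did not overlap, but replicate 1 was about as far above replicate 2 within each arm, and the change of 2.68 ± 0.84 passed narrowly (adjusted p = 0.042). Without LPS replicate 1 or mock replicate 2 the change was 1.94 and 1.87 and the call was lost (adjusted p = 0.31 and 0.32). Syk, a kinase that couples several receptors to signalling, rose from 166 and 150 to 368 and 336 TPM. Irak3, an inhibitory member of the IRAK family, rose by 1.03 ± 0.27, a call lost without LPS replicate 1 (adjusted p = 0.18) or mock replicate 1 (adjusted p = 0.14). Inpp5d, which encodes the lipid phosphatase SHIP1 that limits PI3 kinase signalling, fell from 100 and 90.9 to 32.3 and 34.9 TPM (-1.48 ± 0.16, adjusted p = 6.5e-06). Cnpy3, a chaperone for Toll-like receptors, changed by -1.03 ± 0.31 (adjusted p = 0.036), and this call was lost after rescaling (-0.88, adjusted p = 0.064) and without any one of the 4 libraries (adjusted p up to 0.21). In all, 3 of the 14 measured members rose and 3 fell, with a list median of 0.22; without LPS replicate 1 there was 1 rise, and 2 falls. Tlr4 had no value and was not analysed here.

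Of 15 measured NF-kB genes, 8 rose, against 6.39% of all genes. NF-kB proteins are dimers held in the cytoplasm by inhibitors and released by the IKK complex, and several subunit genes are themselves targets of the pathway. Nfkb1, which encodes the p50 precursor, stood at 172 and 170 TPM in mock and 796 and 589 TPM under LPS (1.99 ± 0.26, adjusted p = 4.0e-05). Nfkb2, the precursor of p52, went from 97.0 and 60.4 to 406 and 256 TPM. Relb, the partner of p52, went from 78.4 and 88.1 to 197 and 225 TPM. For all 3 subunits each LPS library was above both mock libraries, as for 18.8% of all genes. Rel, which encodes c-Rel, changed by 2.49 ± 0.70 (adjusted p = 0.023), from 21.0 and 46.7 to 154 and 213 TPM, but its call was lost without LPS replicate 1, LPS replicate 2 or mock replicate 1 (adjusted p = 0.071, 0.15 and 0.19). Malt1, the protease partner of Bcl10, reached 963 and 1790 TPM from 182 and 396 TPM, and Tank, an adaptor of the kinases Tbk1 and Ikbke, 277 and 282 TPM from 52.9 and 71.4 TPM. The Malt1 call was lost without LPS replicate 2 (adjusted p = 0.055) or mock replicate 1 (adjusted p = 0.061). On this list 1 gene fell and 6 were not called, and the list median was 0.99 against -0.16 for all genes. The number of rises was 5 without LPS replicate 1, LPS replicate 2 or mock replicate 1. The member that fell, Pdcd11 (-0.97 ± 0.24), is also known as a factor of ribosomal RNA processing, and its call was lost after quantile normalization (-0.72, adjusted p = 0.085) and without LPS replicate 2 (-0.70, adjusted p = 0.15) or mock replicate 2 (-0.88, adjusted p = 0.092).

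MAP kinase and phosphatase genes were measured only in part, with a value for 12 of 30 names asked for. Of 12 measured members only Mapkapk2, a kinase downstream of p38 that stabilizes cytokine transcripts, rose, from 244 and 180 to 933 and 585 TPM (1.82 ± 0.47, adjusted p = 0.015), a call lost without LPS replicate 1 (adjusted p = 0.14) or mock replicate 2 (adjusted p = 0.12). No member fell by limma, and 2 were lower by unadjusted p under 0.05. Of 31 names of immediate early regulators asked for, only Junb and Cebpb had a value. Junb, an AP-1 subunit, rose from 367 and 415 to 767 and 671 TPM (0.88 ± 0.22), a call lost without LPS replicate 1 (adjusted p = 0.11) or mock replicate 1 (adjusted p = 0.10).

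Genes of dendritic cell maturation were higher throughout. Maturation is the switch from antigen sampling to antigen presentation, with more costimulatory molecules on the surface. Cd40, the receptor for the T cell ligand CD40L, was at 5.00 and 3.21 TPM in mock and at 503 and 315 TPM under LPS (6.31 ± 0.42, adjusted p = 2.0e-08). Marcksl1, which binds actin and membrane, rose from 254 and 172 to 2290 and 1929 TPM. Clic4, of the chloride intracellular channel family, rose from 163 and 165 to 1290 and 1068 TPM. Cd274, which encodes the inhibitory ligand PD-L1, rose from 144 and 151 to 660 and 659 TPM, so a costimulatory and an inhibitory surface molecule rose together. Stat5a, which carries GM-CSF signals, rose from 35.2 and 30.9 to 336 and 289 TPM, and the survival gene Bcl2l1 from 150 and 141 to 321 and 291 TPM. The Bcl2l1 call was lost without LPS replicate 1 (adjusted p = 0.052). The adhesion molecule Icam1 shares a row with H1f0, and that row went from 341 and 362 to 1096 and 975 TPM; which of the 2 genes the reads came from cannot be told. Of 10 measured members 9 rose and 0 fell, with 10 higher and 0 lower by unadjusted p under 0.05 in limma, and the list median was 1.99. The remaining member, Fscn1, an actin-bundling protein of mature dendritic cells named here after its values were seen, stood at 150 and 63.8 TPM in mock and 393 and 191 TPM under LPS (adjusted p = 0.12). The list was chosen with earlier results of these data known, so its direction is not independent evidence.

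Interferon-stimulated genes made up much of the top of the ranking. Below are promoter stretches of 3 of them, Rsad2, Ifit1 and Isg15, and of 2 inflammatory genes, Irg1 and Il1a. They are shown because their RNA rose strongly and because they hold the searched motifs at different places. The motifs were the ISRE core GAAANNGAA, an NF-kB site core GGANTTTCC, the AP-1 site TGANTCA, the CRE TGACGTCA and the TATA box TATAAA, each on either strand. Capitals mark matches; each sequence runs 5′ to 3′ on the strand of the gene, starts 10 bases before the first match and ends at the last base before the annotated start of transcription.
Rsad2: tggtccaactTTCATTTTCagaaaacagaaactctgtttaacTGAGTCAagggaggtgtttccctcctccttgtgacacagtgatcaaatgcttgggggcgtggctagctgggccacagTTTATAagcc
Ifit1: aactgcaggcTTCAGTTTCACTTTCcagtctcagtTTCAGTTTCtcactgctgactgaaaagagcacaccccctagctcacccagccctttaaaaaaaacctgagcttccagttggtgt
Isg15: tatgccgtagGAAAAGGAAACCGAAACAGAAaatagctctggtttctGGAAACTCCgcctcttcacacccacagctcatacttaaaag
Irg1: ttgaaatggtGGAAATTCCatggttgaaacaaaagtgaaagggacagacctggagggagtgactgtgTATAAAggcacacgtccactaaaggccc
Il1a: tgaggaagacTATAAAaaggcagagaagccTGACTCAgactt
The sequences are RefSeq's, on GRCm38.p6, a later build than the mm9 of the deposited values, and lie directly upstream of the gene at chr12:26456453-26456581 (minus strand), chr19:34640770-34640888 (plus), chr4:156200819-156200906 (minus), chr14:103046917-103047011 (plus) and chr2:129309973-129310014 (minus). Ifit1 holds 3 ISRE cores, starting at -109, -103 and -84, and the first 2 overlap. Isg15 holds 3 at -78, -72 and -66, which also overlap and are printed as 1 run of capitals, followed by an NF-kB core at -41. Rsad2 holds 1 ISRE core at -119, with an AP-1 match at -87 and a TATA box match on the opposite strand at -10. Irg1 holds an NF-kB core at -85 and a TATA box at -28, and Il1a a TATA box at -32 and an AP-1 match at -12. A match is a description of the letters and not a measured binding site.

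Rsad2 encodes viperin, an antiviral radical SAM enzyme, and had the largest change at 2 h. It stood at 19.4 and 14.6 TPM in mock and 3314 and 3370 TPM under LPS (7.55 ± 0.55, adjusted p = 5.4e-08). Ifit1, which binds viral RNA lacking host cap marks, stood at 8.31 and 10.3 TPM in mock and 1240 and 1465 TPM under LPS (7.04 ± 0.39, adjusted p = 3.2e-09). The replicates of each arm were close for both genes, and the gap between arms was many times the gap within them. Isg15, the ubiquitin-like modifier, had the highest level of the measured antiviral effectors and rose from 106 and 62.1 to 3424 and 4185 TPM. Oasl1, of the oligoadenylate synthetase family, rose from 11.6 and 3.87 to 1042 and 866 TPM. Cmpk2, a mitochondrial nucleotide kinase, rose from 9.29 and 7.96 to 809 and 670 TPM. Ifit2, a relative of Ifit1, rose from 6.74 and 4.73 to 404 and 307 TPM, and Ifih1, the RNA sensor MDA5, from 11.3 and 13.3 to 554 and 687 TPM. The arms of these 5 genes did not overlap, which was a condition for a place among the 15 largest rises. Slfn2 of the Schlafen family was already abundant in mock and rose from 697 and 823 to 2680 and 3413 TPM.

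Across the 43 measured antiviral effectors, 32 rose and 0 fell, against 6.39% and 8.04% of all genes, and by unadjusted p under 0.05 in limma 37 were higher and 0 lower. The list median was 1.74, and the changes ran from -0.05 to 7.55. Both LPS libraries lay above both mock libraries for 38 of the 43, against 18.8% of all genes. The effectors summed to 4007 and 3193 TPM in mock and 20745 and 21094 TPM under LPS. The number of rises was 24 without LPS replicate 1 or without mock replicate 2, and 28 or 29 without the others. Bst2, which encodes tetherin, was at 725 and 532 TPM in mock and 574 and 624 TPM under LPS, the lowest change of the list.

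The interferon-inducible GTPases rose in every measured member. These proteins coat and disrupt vacuoles that hold pathogens. Gbp5, in a row shared with the name Gbp1, stood at 46.8 and 29.3 TPM in mock and 717 and 728 TPM under LPS (4.25 ± 0.68, adjusted p = 0.00033). Irgm1 stood at 40.9 and 36.7 TPM in mock and 404 and 255 TPM under LPS (3.02 ± 0.28, adjusted p = 9.3e-07). Ifi47 rose from 22.1 and 8.75 to 258 and 145 TPM and Igtp from 12.8 and 6.39 to 92.9 and 67.1 TPM. The changes of the 8 members ran from 1.73 to 4.25 with a median of 2.68. Each fit without 1 of the 4 libraries called 7 of the 8, losing either Irgm2 or Iigp1. The call of Irgm2 was lost without LPS replicate 1 (adjusted p = 0.065) or mock replicate 2 (adjusted p = 0.051), and that of Iigp1 without LPS replicate 2 (adjusted p = 0.086) or mock replicate 1 (adjusted p = 0.11) and with 0.1 TPM added (adjusted p = 0.074). The 3 measured PYHIN genes, relatives of the DNA sensor AIM2, rose as well: Mndal reached 2424 and 4285 TPM from 134 and 202 TPM, Ifi205 reached 359 and 607 TPM from 8.80 and 21.6 TPM, and Pyhin1 reached 264 and 230 TPM from 37.2 and 27.8 TPM. Members of the GTPase, PYHIN and Ifit families share sequence, and with reads of 30 bases the division of levels between close relatives is uncertain.

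The transducers of interferon signalling changed unevenly. Stat2, a transcription factor activated by the interferon receptor, stood at 65.2 and 84.3 TPM in mock and 417 and 469 TPM under LPS (2.56 ± 0.24, adjusted p = 1.5e-06). Tlr7, the endosomal sensor of single-stranded RNA, rose from 11.8 and 7.48 to 62 and 38 TPM. Irf5, a transcription factor acting downstream of MyD88, fell from 463 and 446 to 278 and 302 TPM (-0.65 ± 0.14, adjusted p = 0.0048), a call lost without LPS replicate 1 (adjusted p = 0.055) and with length and GC trends removed (adjusted p = 0.057). Of 13 measured members, 3 rose (Stat5a, Stat2 and Tlr7) and 1 fell, and the list median was 0.23.

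**Figure D2:**
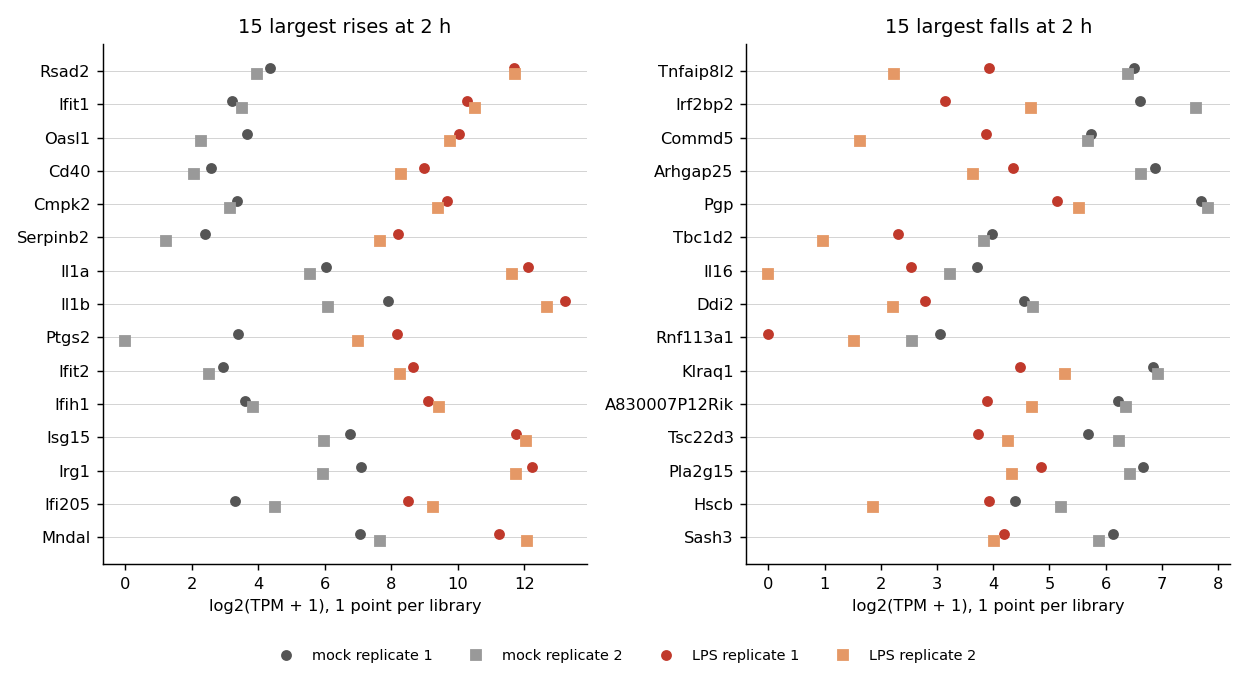
Level of the 15 genes with the largest rises (left) and the 15 with the largest falls (right) at 2 h in each of the 4 libraries, as log2(TPM + 1) with 1 point per library; grey marks mock, red and orange LPS, circles replicate 1 and squares replicate 2. The arms do not overlap in any of the 30 genes, a condition for being shown, and the gap is wider for the rises than for most falls; points at 0 are libraries in which the gene was listed at 0.

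Most antigen presentation genes were not called at 2 h, on a background of 6.39% of all genes risen and 8.04% fallen. Tap1, which carries peptides into the endoplasmic reticulum for MHC class I, was the one riser among 14 measured genes of class I presentation and the immunoproteasome. Its level was 107 and 102 TPM in mock and 298 and 250 TPM under LPS (1.38 ± 0.15, adjusted p = 6.5e-06). The list median was 0.14 against -0.16 for all genes, and 12 of the 14 changes were above 0. By unadjusted p under 0.05 in limma 3 were higher (21.4%, against 10% of all genes) and 0 lower. Of the 9 measured MHC class II and loading genes none rose or fell by limma, with 1 higher and 1 lower by unadjusted p under 0.05. Cd74, the class II invariant chain, stood at 10404 and 3859 TPM in mock and 11536 and 4912 TPM under LPS, so that its replicates differed far more than its arms. Of 19 measured uptake and surface receptors, 1 rose and 0 fell. The riser was the complement receptor C5ar1, from 35.7 and 35.3 to 182 and 180 TPM (2.32 ± 0.34, adjusted p = 0.00013). By unadjusted p under 0.05 in limma 3 receptors were higher (15.8%, against 10% of all genes) and 2 lower (10.5%, against 16.6%). After rescaling 3 rose.

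Genes of cell survival and stress defence rose singly, on a background of 6.39% of all genes risen and 8.04% fallen. Nlrp3, the sensor of the inflammasome that matures interleukin-1 beta, rose from 88.1 and 90.8 to 475 and 384 TPM (2.24 ± 0.23, adjusted p = 3.1e-06). Tnfrsf1b, the second TNF receptor, rose from 229 and 276 to 775 and 598 TPM. Casp9, the initiator caspase of the mitochondrial death pathway, fell from 28.5 and 21.4 to 6.31 and 7.60 TPM (-1.69 ± 0.27, adjusted p = 0.00029). Of 26 measured members of the death and survival list 5 rose and 1 fell, and the list median was 0.11; without LPS replicate 2 there were 3 rises. Among 28 antioxidant and stress-defence genes 4 rose and 0 fell, with 5 higher and 1 lower by unadjusted p under 0.05 in limma. The risers were Sod2, the autophagy receptor Sqstm1 (313 and 283 to 1110 and 726 TPM), the thioredoxin reductase Txnrd1 and the metallothionein Mt2. Calls were lost for Txnrd1 without any one of the 4 libraries (adjusted p up to 0.16) and for Mt2 without LPS replicate 2 (adjusted p = 0.10) or mock replicate 1 (adjusted p = 0.16). Without LPS replicate 2 or mock replicate 1, 2 genes of the list rose. Its median was -0.12, and 0.03 after rescaling.

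Metabolic genes were mostly not called, on a background of 6.39% of all genes risen and 8.04% fallen. Of 14 measured glycolysis genes, 2 rose: the sugar transporter Slc2a6, from 165 and 121 to 812 and 504 TPM (2.17 ± 0.44, adjusted p = 0.0026), and the phosphofructokinase Pfkp (1.39 ± 0.42, adjusted p = 0.032), whose call was lost without any one of the 4 libraries (adjusted p up to 0.23) and after quantile normalization (adjusted p = 0.060). None of 25 citric acid cycle genes was called by limma, with 0 higher and 2 lower by unadjusted p under 0.05. Of 54 respiratory chain genes 0 rose and 1, Ndufs6, fell (-0.71 ± 0.22, adjusted p = 0.043), with 0 higher and 9 lower (16.7%, against 16.6% of all genes) by unadjusted p in limma; this call was lost after rescaling (adjusted p = 0.17) and without any one of the 4 libraries (adjusted p up to 0.24), while quantile normalization gave 7 falls. The respiratory chain median was -0.27, and -0.12 after rescaling. In cholesterol handling the thiolases Acat2 and Acat3 share a row, and which gene its reads came from cannot be told. Of 13 genes 3 fell, the mevalonate pathway enzymes Mvd and Mvk and this thiolase row, and 1, Idi1, rose. Without LPS replicate 2 or without mock replicate 2 none of these 4 was called.

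Among the most abundant genes that were called, the row Mir147;AA467197 rose from 3417 and 4359 to 8447 and 9296 TPM (1.20 ± 0.20, adjusted p = 0.00060), and its call was lost with length and GC trends removed (0.59, adjusted p = 0.078). The row carries the name of a microRNA, but poly(A)-selected RNA of this kind measures the long host transcript and not the mature miRNA. Tnfaip2, a TNF-inducible gene, rose from 223 and 322 to 2294 and 2651 TPM (3.20 ± 0.37, adjusted p = 9.8e-06). Serpinb2, an intracellular inhibitor of plasminogen activators, was at 4.27 and 1.36 TPM in mock and at 296 and 199 TPM under LPS (6.11 ± 0.71, adjusted p = 1.1e-05).

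**Figure D3:**
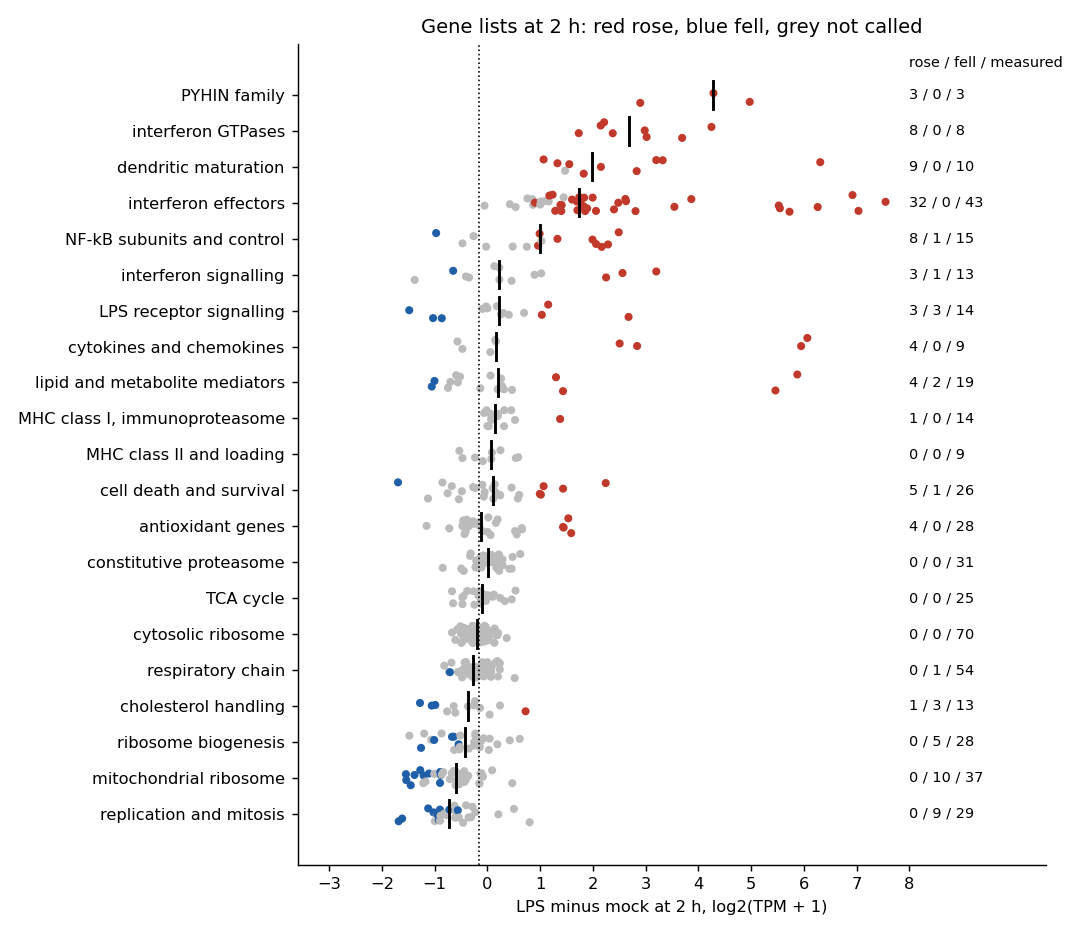
Change at 2 h (LPS minus mock, log2(TPM + 1)) of each measured member of 21 gene lists, with 1 point per gene, red for rose, blue for fell and grey for not called; black bars are list medians and the dotted line is the median of all 3147 genes (-0.16). The PYHIN, GTPase, maturation and antiviral effector lists have medians well to the right of the dotted line, and the mitochondrial ribosome and replication lists have theirs to the left of it.

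The largest falls came from genes of varied roles. Tnfaip8l2, which encodes TIPE2, an inhibitor of Toll-like receptor signalling, fell most, from 89.5 and 83.6 to 14.3 and 3.73 TPM (-3.37 ± 0.38, adjusted p = 9.0e-06). Irf2bp2, a transcriptional corepressor, fell from 96.9 and 195 to 7.87 and 24.6 TPM (-3.20 ± 0.57, adjusted p = 0.00084). Commd5 fell from 52.6 and 50.6 to 13.7 and 2.10 TPM. In these 3 genes the LPS libraries were further apart than for most risers, yet both stayed far below mock. Pgp, a phosphoglycolate phosphatase, fell from 207 and 226 to 34.0 and 45.3 TPM (-2.43 ± 0.25, adjusted p = 2.8e-06), and Arhgap25, a Rac GTPase-activating protein of blood cells, from 116 and 97.6 to 19.3 and 11.4 TPM. Tsc22d3, which encodes the glucocorticoid-induced leucine zipper GILZ, a brake on NF-kB, fell from 50.7 and 74.8 to 12.2 and 18.2 TPM (-1.98 ± 0.40, adjusted p = 0.0026). Sash3, an adaptor of lymphocytes, fell from 69.4 and 58.1 to 17.2 and 15.2 TPM, and the lysosomal phospholipase Pla2g15 from 101 and 85.3 to 27.8 and 19.1 TPM. The remaining members of the 15 were Tbc1d2, Il16, Ddi2, Rnf113a1, Klraq1, A830007P12Rik and Hscb, with changes from -2.27 to -1.91. Il16 was listed at 0 in LPS replicate 2 and Rnf113a1 in LPS replicate 1. Without those libraries the changes were -0.94 (adjusted p = 0.37) and -1.28 (adjusted p = 0.20), and the calls of Il16 and Rnf113a1 were also lost without mock replicate 1 (adjusted p = 0.15 and 0.11), that of Il16 without mock replicate 2 (adjusted p = 0.068). The Hscb call was lost without LPS replicate 2 (-0.88, adjusted p = 0.10) or mock replicate 2 (-1.50, adjusted p = 0.095). Among abundant genes Dok2, an adaptor that dampens tyrosine kinase signalling, fell from 508 and 432 to 180 and 203 TPM (-1.29 ± 0.19, adjusted p = 0.00013), and Cyth4, an exchange factor for ARF GTPases, from 441 and 473 to 252 and 245 TPM.

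Falls were also frequent among genes of the mitochondrial ribosome, with 10 of 37. This ribosome translates the proteins encoded by mitochondrial DNA. Mrpl43, of its large subunit, fell from 135 and 125 to 51.6 and 54.8 TPM (-1.27 ± 0.19, adjusted p = 0.00015), and Mrps27, of its small subunit, from 16.6 and 16 to 5.41 and 4.49 TPM (-1.54 ± 0.31, adjusted p = 0.0021). Mrpl47 fell from 39.6 and 40.9 to 13.7 and 14.5 TPM. In these 3 genes the libraries of an arm were nearly equal. None of the 37 rose by limma, while 8.04% of all genes fell and 6.39% rose, and by unadjusted p under 0.05 in limma 17 were lower and 0 higher. The median was -0.60, and -0.46 after rescaling, which left 8 falls; without mock replicate 2 there were 5. The cytosolic ribosome differed: none of its 70 measured genes was called by limma, with 1 higher and 1 lower by unadjusted p under 0.05, and its median was -0.19, close to that of all genes.

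Of 29 measured replication and cell division genes, 9 fell and 20 were not called, while 8.04% of all genes fell. Rpa2, a subunit of the single-stranded DNA binding complex, fell from 97.4 and 90.3 to 25.9 and 31.4 TPM (-1.68 ± 0.23, adjusted p = 8.1e-05). Pold1, the catalytic subunit of DNA polymerase delta, fell from 26.9 and 26.5 to 9.74 and 6.62 TPM, and Rfc2, of the clamp loader, from 93.9 and 93.4 to 45.4 and 39.7 TPM. The maintenance methyltransferase Dnmt1 fell from 43.2 and 61.5 to 22.2 and 27.8 TPM. None of the 29 rose by limma, with 16 lower and 0 higher by unadjusted p under 0.05 in limma. The list median was -0.72, and -0.57 after rescaling, which left 6 falls; without mock replicate 2 there were 5. Of 28 genes of ribosome biogenesis 5 fell and 0 rose, with 8 lower and 1 higher by unadjusted p in limma. Nop2, a nucleolar rRNA methyltransferase, had the largest of these falls (-1.26 ± 0.27, adjusted p = 0.0044). After rescaling 2 fell and 1 rose, and without mock replicate 1 none was called (Nop2, adjusted p = 0.059).

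In the remaining lists most members were not called, on a background of 6.39% of all genes risen and 8.04% fallen. Of 35 transcription and chromatin genes 3 fell, Irf2bp2, Smarcd2 and Polr2e, and 0 rose; by unadjusted p under 0.05 in limma 7 were lower and 0 higher. The Polr2e call was lost without LPS replicate 2, mock replicate 1 or mock replicate 2 (adjusted p = 0.12, 0.072 and 0.052). Of 57 splicing genes 1 rose and 2 fell, and none was called without LPS replicate 1, mock replicate 1 or mock replicate 2. Of 44 endosome and lysosome genes 2 fell and 0 rose, and none was called after rescaling or without LPS replicate 1, LPS replicate 2 or mock replicate 2. Actin and adhesion genes split evenly, with 5 of 53 rising and 5 falling, among them the integrin Itga5 (66.7 and 59.2 to 174 and 147 TPM) and the actin regulator Synpo (52.9 and 40.5 to 8.42 and 16.4 TPM). The Itga5 call was lost without LPS replicate 1 (adjusted p = 0.052). Leaving out LPS replicate 1, LPS replicate 2, mock replicate 1 or mock replicate 2 left 3, 3, 2 and 4 rises and 4, 2, 2 and 3 falls on this list. The 31 constitutive proteasome genes and the 19 tRNA synthetases had no call by limma; by unadjusted p under 0.05, 1 was higher and 2 lower among the first and 0 higher and 1 lower among the second.

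Set beside the neighbouring times, 2 h lay between a mainly upward response at 1 h and a mainly downward one at 4 h in these relative values. The calls at 1 h and 4 h were not recounted under other scalings. At 1 h 103 genes had risen (3.27%) and 25 had fallen (0.794%), 128 in all (4.07%). At 4 h 275 had risen (8.74%) and 918 had fallen (29.2%), 1193 in all (37.9%). Of the 201 genes risen at 2 h, 61 were risen at all 3 times, 96 at 2 h and 4 h, 12 at 1 h and 2 h, and 31 at 2 h without a call at the others; 1 was risen at 2 h and fallen at 4 h. That gene, Iqsec1, named for this change, stood at 34.4 and 41.8 TPM in mock and 66.1 and 72.4 TPM under LPS at 2 h; its call at 2 h was lost without any one of the 4 libraries (adjusted p up to 0.23). Of the 253 genes fallen at 2 h, 11 were fallen at all 3 times, 211 at 2 h and 4 h, and 31 at 2 h alone. Each time has its own LPS and mock libraries. A call at one time and not at another does not show that the effects differ, so the differences between times were tested themselves.

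The effect at 2 h was higher than at 1 h for 25 genes (0.794%) and lower for 12 (0.381%), 37 in all (1.18%). The largest increase was in Cmpk2, whose effect was 1.41 at 1 h and 6.26 at 2 h (difference 4.85, adjusted p = 0.0011). Ifi47 went from -0.41 to 3.69, Igtp from -0.79 to 2.98 and Irgm1 from 0.38 to 3.02, so these GTPases had effects near or below 0 at 1 h. Rsad2 and Ifit1 were already up at 1 h, with effects of 3.67 and 4.05, and were higher still at 2 h. Outside the interferon lists, Sap30, a subunit of the Sin3 histone deacetylase complex, went from -0.43 to 2.13. In the other direction, Nosip, which binds nitric oxide synthases, went from -0.02 to -1.81 and Dhx30, an RNA helicase, from 0.15 to -1.53. Tnfaip8l2 and Pgp were also among the lower ones. Of the genes named from this test, Cmpk2, Irgm1, Nosip and Dhx30 stayed past the threshold without any one of the 8 libraries. Ifi47, Igtp, Sap30, Rsad2, Ifit1, Tnfaip8l2 and Pgp did not, and the closing section names the libraries. With only the groups compared in the limma fit, Cmpk2, Irgm1, Nosip and Dhx30 were no longer past the threshold (adjusted p = 0.077, 0.077, 0.099 and 0.16). Rsad2 and Ifit1 were past it in that fit (adjusted p = 0.0088 and 0.028).

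The effect at 4 h was higher than at 2 h for 30 genes (0.953%) and lower for 71 (2.26%), 101 in all (3.21%). After median-ratio rescaling 57 were higher and 34 lower, and after quantile normalization 34 and 16. Which direction held more genes therefore changed with the scaling. Iigp1 went from 2.21 to 6.50, Gbp2 from 1.73 to 3.86 and Ifit2 from 5.73 to 8.40. Bst2, whose change at 2 h was -0.05 ± 0.34, reached an effect of 1.96 at 4 h. Kynu, an enzyme of tryptophan breakdown, went from 0.47 to 2.89. Among the lower ones, Iqsec1, an exchange factor for ARF6, went from 0.85 to -1.55 and Eps8, an actin-capping signalling protein, from -0.44 to -2.74. Iigp1, Gbp2, Ifit2, Iqsec1 and Eps8 stayed past the threshold without any one of the 8 libraries, and Bst2 and Kynu did not. The 7 genes past both tests moved in 1 direction throughout: Ifit2, Ddx58, Gbp3, Parp9, Tap1 and Tor3a increased from 1 h to 2 h and again to 4 h, and Inpp5d decreased at both steps. All 4 counts of differing effects rest on the spread pooled over 13 groups. With only the groups compared in the fit they were 3 and 0 for 2 h against 1 h, and 0 and 0 for 4 h against 2 h, where 96, 243, 104 and 434 genes had an unadjusted p under 0.05.

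**Figure D4:**
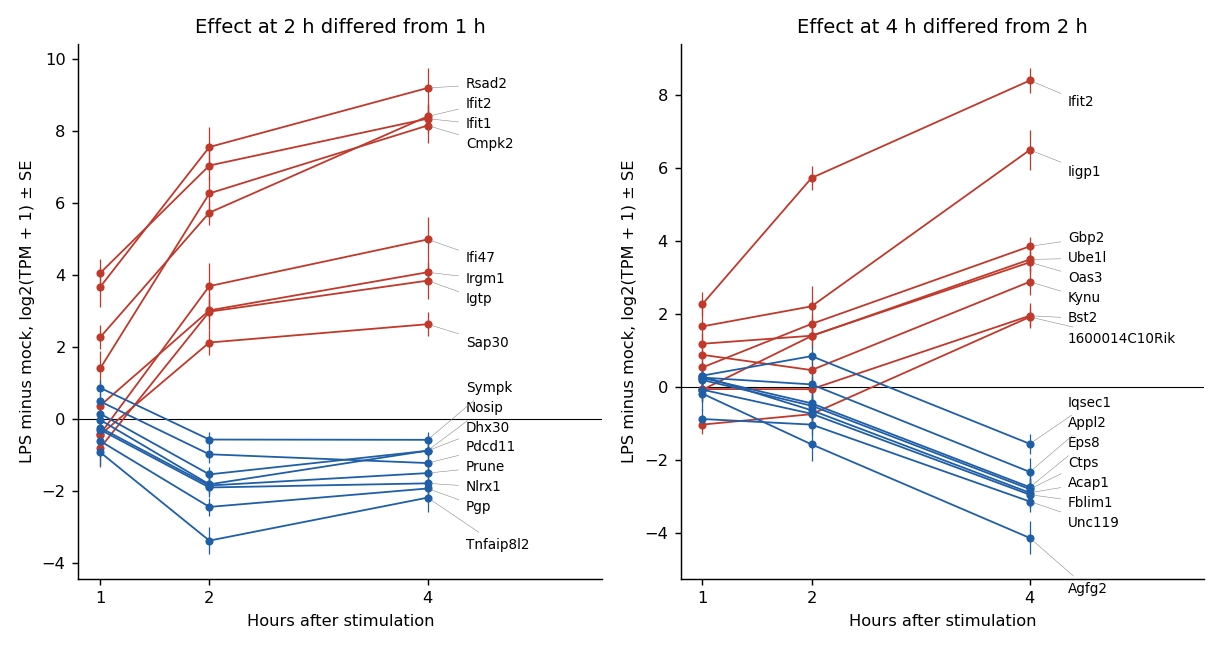
Effect of LPS (LPS minus mock, log2(TPM + 1)) with its standard error at 1 h, 2 h and 4 h for the 8 largest differences each way between 2 h and 1 h (left) and between 4 h and 2 h (right); red lines are genes whose later effect was higher and blue lines genes whose later effect was lower. On the left the red lines climb mostly between 1 h and 2 h, and on the right the blue lines stay near or below 0 at 2 h and drop by 4 h, except Iqsec1, which is above 0 at 2 h.

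The gene lists followed these times differently. Median effects of the antiviral effectors were 0.54, 1.74 and 3.00 at 1 h, 2 h and 4 h, and of the GTPases 0.31, 2.68 and 3.97. For the NF-kB list they were 0.62, 0.99 and 0.61, and for the maturation list 1.53, 1.99 and 2.06. Class I presentation stood at -0.08, 0.14 and 0.95, with 0, 1 and 8 of 14 genes risen. Ribosome biogenesis stood at 0.24, -0.43 and -0.97, replication at -0.36, -0.72 and -1.34, and the mitochondrial ribosome at -0.38, -0.60 and -0.70. The medians of all genes were -0.05, -0.16 and -0.46 at these times. These are descriptions, with no test of a list.

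The mock arm itself did not differ detectably from 0 h. With limma, 0 genes were higher and 0 lower in mock at 2 h than at 0 h, and 19 and 35 had an unadjusted p under 0.05. Without replicate 1 of the 0 h libraries 1 gene was higher.

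Called genes differed from the rest in features of sequence. Median transcript length was 2686 bases for genes that rose, 1916 for genes not called and 2001 for genes that fell. Median GC content was 48.8%, 50.3% and 54.6% in the same order. In GC content the genes that fell lay further from those not called than the genes that rose did. Across the 3127 genes with both values the change had a Spearman correlation of 0.11 with length and -0.31 with GC content, which the points share with any bias of the libraries for length or base composition. After the dependence of log2 levels on length and GC content had been removed from each library, 184 genes rose and 200 fell, of which 168 and 160 were among the main calls.

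Promoter windows from 250 bases before to 50 bases after the start were available for 2564 of the 3147 genes, 166 risen and 216 fallen; a gene with several listed starts counted once if any held the motif. The ISRE core occurred in 24.1% of risen genes (40 of 166), in 8.33% of fallen genes and in 8.85% of genes not called, against 8.56% of all windows of this length in the table. Among risen genes that changed by more than 2 on the log2 scale the share was 37.3% (19 of 51). It was 6 of 7 among the GTPases and 17 of 38 among the antiviral effectors, and 1 of 11 among the NF-kB genes. The NF-kB core occurred in 4.22% of risen genes, 1.39% of fallen genes and 1.24% of genes not called, against 1.25% of all windows. The AP-1 site occurred in 11.4%, 5.09% and 5.96%, against 7.81% of all windows. The TATA box occurred in 11.4%, 7.87% and 8.30%, against 13.6% of all windows. The CRE was rarer among risen genes (1.20%) than among fallen genes (2.31%) and genes not called (3.76%), and 1.79% of all windows held it. The shares of all windows count each start separately, unlike the shares of genes. Over the 2564 genes the shares were 9.79% (ISRE core), 1.44% (NF-kB core), 6.24% (AP-1), 8.46% (TATA box) and 3.47% (CRE). These shares were not tested, and genes of a family can share promoter sequence. Conversely, of the 251 genes with an ISRE core, 15.9% had risen and 7.17% had fallen, against 6.39% and 8.04% of all 3147 genes.

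**Figure D5:**
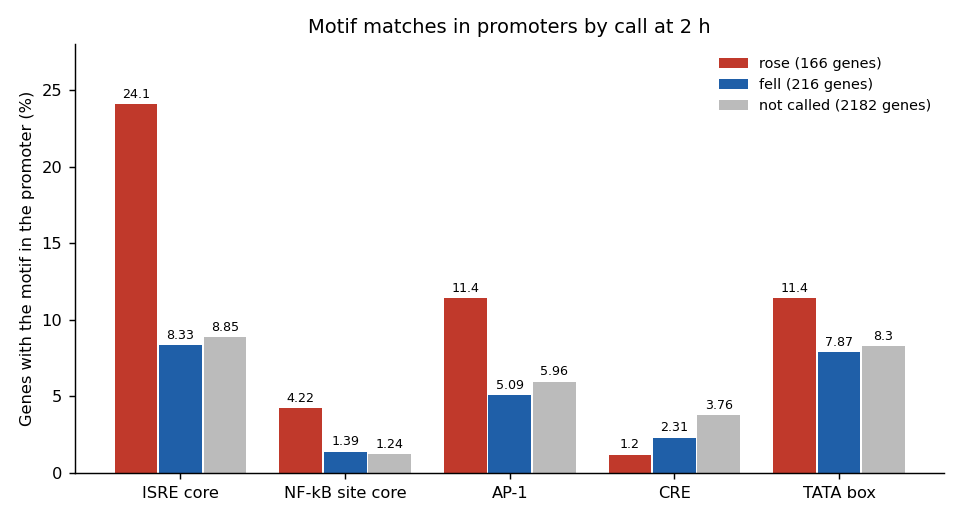
Share of genes whose promoter window holds each of 5 motifs (percent, bars from 0), for the genes that rose (red, 166), fell (blue, 216) and were not called (grey, 2182) at 2 h. The ISRE core stands at 24.1% in the risen genes against 8.33% and 8.85% in the others.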

How the data were processed

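Of 26 RNA libraries in 13 groups of 2, the 4 at 2 h were compared. RNA was poly(A)-selected, strand-specific and read as 30 bp pairs, per the labels' protocols. The authors deposited TPM values per gene; the submitters' processing notes name mm9, Bowtie 0.12.7 and RSEM 1.2.3 without saying which step used which. Each deposited TPM column sums to a fixed total over its 3147 rows, of which 363 merge several names, so depth and counting error are not known.

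From these values, log2(TPM + 1) was fitted with limma 3.58.1 in R 4.3.3 (limma-trend, 13 group means, 13 residual degrees of freedom) and p-values were adjusted by Benjamini-Hochberg over all genes. The filter of at least 1 TPM in 2 libraries removed none. The fit was run on simulated data with independent scatter in each library, which cannot show how it behaves where libraries share scatter. Gene lengths and GC content came from GENCODE vM21 by symbol (3127 genes) and promoters from RefSeq on GRCm38.p6 (2564 genes). Genes are named from a rule: the 15 largest rises and falls with separate arms, in each role list up to 5 called genes and the one with the highest mean level, the 10 most abundant called genes each way, the 8 largest differences each way between times, and 21 genes known to mark an LPS response; not all are printed. Members and lists were chosen with earlier results of these data known. Alternatives covered the amount added, filters, scaling, variance, length and GC, left-out libraries, replicate number and, added after seeing the data, the mean of mock at 1 h, 2 h and 4 h. Python 3.11.15 with matplotlib 3.10.9 served for lists, promoters and plots.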

Additional observations from a re-analysis of the deposited data

Results flagged for a closer look

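The effects of LPS at different times differed by a direct test of the difference (limma, adjusted p under 0.05 over 3147 genes), which is why these results stand here. Each difference uses 8 libraries, and both sets of differences share the 4 libraries of 2 h. Between 1 h and 2 h the effect became higher for 25 genes and lower for 12. The named genes with a higher effect at 2 h were Cmpk2 (4.85), Ifi47 (4.10), Rsad2 (3.88), Igtp (3.78), Ifit2 (3.45), Ifit1 (2.98), Irgm1 (2.64) and Sap30 (2.56), all on the log2(TPM + 1) scale. Those with a lower effect were Tnfaip8l2 (-2.45), Pgp (-1.83), Nosip (-1.79), Dhx30 (-1.68), Prune (-1.60), Nlrx1 (-1.60), Pdcd11 (-1.47) and Sympk (-1.43). Cmpk2, Ifit2, Irgm1, Nosip and Dhx30 kept an adjusted p under 0.05 without any one of the 8 libraries. Ifit1 lost it without LPS replicate 2 or mock replicate 1 of 1 h, and Sap30 without mock replicate 2 of 2 h, LPS replicate 2 of 1 h or mock replicate 2 of 1 h. Igtp and Prune lost it without LPS replicate 1 or mock replicate 2 of 2 h, or LPS replicate 2 or mock replicate 1 of 1 h, and Pgp without those of 2 h or replicate 2 of either arm of 1 h. For Ifi47, Sympk, Rsad2, Tnfaip8l2, Pdcd11 and Nlrx1 the call was lost without any of 5, 5, 6, 6, 6 and 8 libraries, among them in each case mock replicate 2 of 2 h and LPS replicate 2 and mock replicate 1 of 1 h, with adjusted p up to 0.18, 0.18, 0.10, 0.18, 0.21 and 0.15.

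Between 2 h and 4 h the effect became higher for 30 genes and lower for 71. The named genes with a higher effect at 4 h were Iigp1 (4.28), Ifit2 (2.67), 1600014C10Rik (2.66), Kynu (2.42), Gbp2 (2.12), the row that holds Uba7 (2.10), Oas3 (2.01) and Bst2 (2.01). Those with a lower effect were Agfg2 (-2.56), Iqsec1 (-2.40), Appl2 (-2.40), Eps8 (-2.30), Ctps (-2.28), the row that holds Acap1 (-2.26), Fblim1 (-2.22) and Unc119 (-2.11). Iigp1, Ifit2, 1600014C10Rik, Gbp2, Iqsec1, Eps8 and Unc119 kept an adjusted p under 0.05 without any one of the 8 libraries. Oas3 lost it without LPS replicate 2 or mock replicate 1 of 2 h (adjusted p up to 0.070). The Uba7 row, Fblim1, Kynu, Bst2, Agfg2, Appl2, the Acap1 row and Ctps lost it without any of 5, 5, 6, 6, 6, 6, 6 and 8 libraries, among them in each case LPS replicate 2 and mock replicate 1 of 2 h and LPS replicate 2 and mock replicate 2 of 4 h.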

How the results depend on the processing

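The 201 rises and 253 falls at 2 h kept within 1.5 times their number with 0.1 or 5 TPM added, with or without a filter, without the variance trend, after quantile normalization and with length and GC trends removed. Median-ratio rescaling gave 163 falls, and for the differences between times 7 lower at 2 h than at 1 h, 57 higher at 4 h than at 2 h and 34 lower; quantile normalization gave 16 for the last. With only the groups compared in the fit there were 90 falls, and 3, 0, 0 and 0 differing effects in place of 25, 12, 30 and 71. The 3 were the higher effects at 2 h than at 1 h of Rsad2, Ifit1 and Ifit2. Against the mean of mock at 1 h, 2 h and 4 h, chosen after seeing the data, 428 genes fell. Without 1 library, rises ranged from 133 to 147 and falls from 108 to 140. Higher effects at 2 h than at 1 h then ranged from 11 to 55 and lower ones from 3 to 32, higher effects at 4 h than at 2 h from 11 to 29 and lower ones from 22 to 52, and genes higher in mock at 2 h than at 0 h from 0 to 1; the cause was not tested. With the replicate number as a block, 346 genes rose and 525 fell, and 64, 91, 84 and 279 effects differed. The labels do not say what a replicate number shares; the differences between replicates correlated between arms across genes at 0.51, 0.68 and 0.23 at 1 h, 2 h and 4 h, and no call of a named gene was lost under the block. Among genes named with no call, 3 changed sign. The change of Bst2 at 2 h turned positive after rescaling (0.09), with length and GC trends removed (0.14), against the mean of mock (0.31) and without LPS replicate 1 (0.01) or mock replicate 1 (0.17). That of Cebpb turned positive with length and GC trends removed (0.33) and without LPS replicate 1 (0.05), and that of Cd74 negative without LPS replicate 1 (-0.37) or mock replicate 2 (-0.47). Over single left-out libraries these 3 changes ranged from -0.28 to 0.17, from -0.53 to 0.05 and from -0.47 to 0.96. Depth is unknown, so what it limits cannot be given.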
